A study of Mus musculus with 19 samples.

Results

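Cilp, Cilp2, Comp and Thbs4 encode secreted matrix proteins that are best known from cartilage and tendon, and they were followed here in a fast-twitch hindlimb muscle, the extensor digitorum longus (EDL). The genes were chosen by their measured signal in these samples, among them the difference of Cilp between the groups, and the members were all probe sets annotated to only 1 of the 4 genes. Each gene had 1 such probe set, so there were 4 of 45037 probe sets other than controls. All 4 passed the filter on dim probe sets, which left 22519. The study measured RNA from FVB mice aged 19 weeks on Affymetrix arrays, 1 array per sample. There were 9 wild-type samples and 10 HSALR samples. The HSALR transgene is human skeletal actin with an expanded CTG repeat, expressed in skeletal muscle, and models the RNA toxicity of myotonic dystrophy. All HSALR samples came from 1 transgenic line, labelled 20 b, and whether each sample was another animal is not stated in the labels. The p-values below therefore reflect variation among these samples alone, part of which may be technical.

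Cilp (cartilage intermediate layer protein) and its paralog Cilp2 are large glycoproteins of the extracellular matrix. CILP binds TGF-beta and insulin-like growth factor 1 and can dampen their signals, and in muscle and heart its transcript is found mainly in fibroblasts. Comp (cartilage oligomeric matrix protein, also called thrombospondin 5) and Thbs4 (thrombospondin 4) form multimers that bind collagens and organise fibres in tendon. Thbs4 is also found at the attachment of muscle to tendon.

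Sequence around the start of each gene was available from RefSeq for 3 of the 4 members, as windows of 300 bases that run from 250 bases before to 50 bases after the start. They are shown to set the start region of Cilp beside those of its paralog and of Thbs4. The CTG run in the Cilp window was noticed after the values of Cilp were known, and whether such runs relate to a gene's level was not tested. In the Cilp window the first stretch of capitals marks 7 uninterrupted CTG units, beginning 91 bases before the start, and the second marks TATATAA, beginning 30 bases before it.
Cilp promoter window, GRCm38.p6, chr9:65264930-65265229, plus strand: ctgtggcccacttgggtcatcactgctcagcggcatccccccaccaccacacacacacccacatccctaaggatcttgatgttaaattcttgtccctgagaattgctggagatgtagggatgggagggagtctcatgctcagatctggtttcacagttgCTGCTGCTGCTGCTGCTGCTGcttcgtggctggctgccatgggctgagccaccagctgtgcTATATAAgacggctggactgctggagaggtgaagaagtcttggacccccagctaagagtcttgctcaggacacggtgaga
Cilp2 promoter window, GRCm38.p6, chr8:69887343-69887642, minus strand: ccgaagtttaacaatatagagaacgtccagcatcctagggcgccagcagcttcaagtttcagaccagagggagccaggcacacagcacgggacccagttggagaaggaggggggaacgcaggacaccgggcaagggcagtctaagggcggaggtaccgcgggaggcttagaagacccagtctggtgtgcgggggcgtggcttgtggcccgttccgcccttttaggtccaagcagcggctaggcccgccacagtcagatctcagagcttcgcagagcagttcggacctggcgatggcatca
Thbs4 promoter window, GRCm38.p6, chr13:92794769-92795068, minus strand: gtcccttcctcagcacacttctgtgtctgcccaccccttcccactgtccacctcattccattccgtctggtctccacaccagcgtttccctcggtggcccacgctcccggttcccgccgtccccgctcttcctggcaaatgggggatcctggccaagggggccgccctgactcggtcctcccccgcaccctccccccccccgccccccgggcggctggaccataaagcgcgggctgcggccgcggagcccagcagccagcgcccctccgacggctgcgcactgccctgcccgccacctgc
The longest run of CTG, read on either strand, was 2 units in the windows of Cilp2 and Thbs4. Runs of at least 7 units on either strand were found in 18 of 32851 windows of this length (0.0548%). TATATAA on the gene strand was found in 2.2% of windows. The windows were 55.7%, 61.3% and 72% G or C in Cilp, Cilp2 and Thbs4. These letters are of the reference genome, not of the FVB mice measured, and a match is a description and not a site. Cilp2 and Comp lie on chromosome 8 in RefSeq's GRCm38.p6 table, with 24 protein-coding genes between them, Cilp lies on chromosome 9 and Thbs4 on chromosome 13.

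The arrays were compared before the members. The median signal ranged from 39.7 to 71.9 between arrays. HSALR samples 9 and 10 were the most similar pair, with a Spearman correlation of 0.978 over the tested probe sets, while the other samples reached 0.953 to 0.969 with their nearest neighbour. Skeletal muscle markers, among them Acta1, Ckm and Myh4, were bright in every sample. Their summed signal was 67038 to 76770 in wild type and 64577 to 72055 in HSALR samples 1 to 7. In samples 8, 9 and 10 it was 76596, 69639 and 72205. Every sample thus read as skeletal muscle, while these markers cannot tell EDL from other fast muscles. HSALR samples 9 and 10 also stood apart in markers of other cells, and HSALR sample 8 did so in part. Results are therefore given with and without samples 9 and 10, and without sample 8 as well where this matters.

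The first question was how each member differed between HSALR and wild-type muscle. The members were proposed with this contrast known, so the values describe it, and no p-value is given for the members. Cilp was the member with a clear separation. Its signal was lowest at 634, median 745 and highest at 1275 in the 9 wild-type samples, and lowest at 2749, median 4362.5 and highest at 5556 in the 10 HSALR samples. The lowest HSALR sample was number 7 and the highest wild-type sample was number 4, and between them lay a gap of 1.10 on the scale of log2(signal + 16). All fold changes below are on that scale, which understates the change of dim genes. The mean log2 signal of Cilp in wild type was 9.68 ± 0.32 (SD, n = 9), and in HSALR it was 12.02 ± 0.33 (SD, n = 10). The log2 fold was 2.35 ± 0.14 (SE), or 5.09-fold. Without HSALR samples 9 and 10 it was 2.27 ± 0.15, and without samples 8, 9 and 10 it was 2.22 ± 0.15.

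Cilp was 1 of 4 members in which every HSALR sample lay above every wild-type sample, a separation seen in 0.36% of the probe sets tested. It was also the 1 of 4 past a false discovery rate of 0.05 in limma in the higher direction, against 2.86% of probe sets tested. Both counts follow from how the members were proposed, and nothing is read from them.

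Cilp2, the paralog of Cilp, was dim. Its signal ran from 41.7 through a median of 86.0 to 126.7 in wild type, and from 61.8 through 114.2 to 250.4 in HSALR. The groups overlapped, and only HSALR samples 8, 9 and 10, at 230.0, 179.0 and 250.4, lay above every wild-type sample. The log2 fold was 0.50 ± 0.22 (SE) with all samples, 0.31 ± 0.21 without HSALR samples 9 and 10, and 0.16 ± 0.18 without samples 8, 9 and 10.

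Comp was bright in every sample. Its wild-type signal was lowest at 908, median 1446 and highest at 1747, and its HSALR signal was lowest at 938, median 1848 and highest at 6152. HSALR samples 6 and 7, at 2051 and 2129, lay above all wild-type samples, and samples 8, 9 and 10 lay further up at 3026, 4587 and 6152. HSALR samples 1 to 5, at 938 to 1645, lay within the wild-type range. The SD of the log2 signal was 0.28 in wild type (n = 9) and 0.87 in HSALR (n = 10), and 0.55 in the 8 HSALR samples without 9 and 10. The log2 fold was 0.54 ± 0.27 (SE) with all samples, 0.20 ± 0.19 without HSALR samples 9 and 10, and 0.07 ± 0.17 without samples 8, 9 and 10.

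Thbs4 showed the same samples at the top and HSALR samples 4 and 5 at the bottom. Its signal ran from 2511 through a median of 3212 to 3727 in wild type, and from 1988 through 3884 to 7998 in HSALR. HSALR samples 8, 9 and 10 reached 5324, 7544 and 7998. HSALR samples 4 and 5, at 2274 and 1988, lay below every wild-type sample, while 6 of 10 HSALR samples lay above all of them. The SD of the log2 signal was 0.20 in wild type (n = 9) and 0.66 in HSALR (n = 10). The log2 fold was 0.32 ± 0.21 (SE) with all samples and 0.07 ± 0.16 without HSALR samples 9 and 10. Without samples 8, 9 and 10 its sign turned, at -0.02 ± 0.15.

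**Figure D1:**
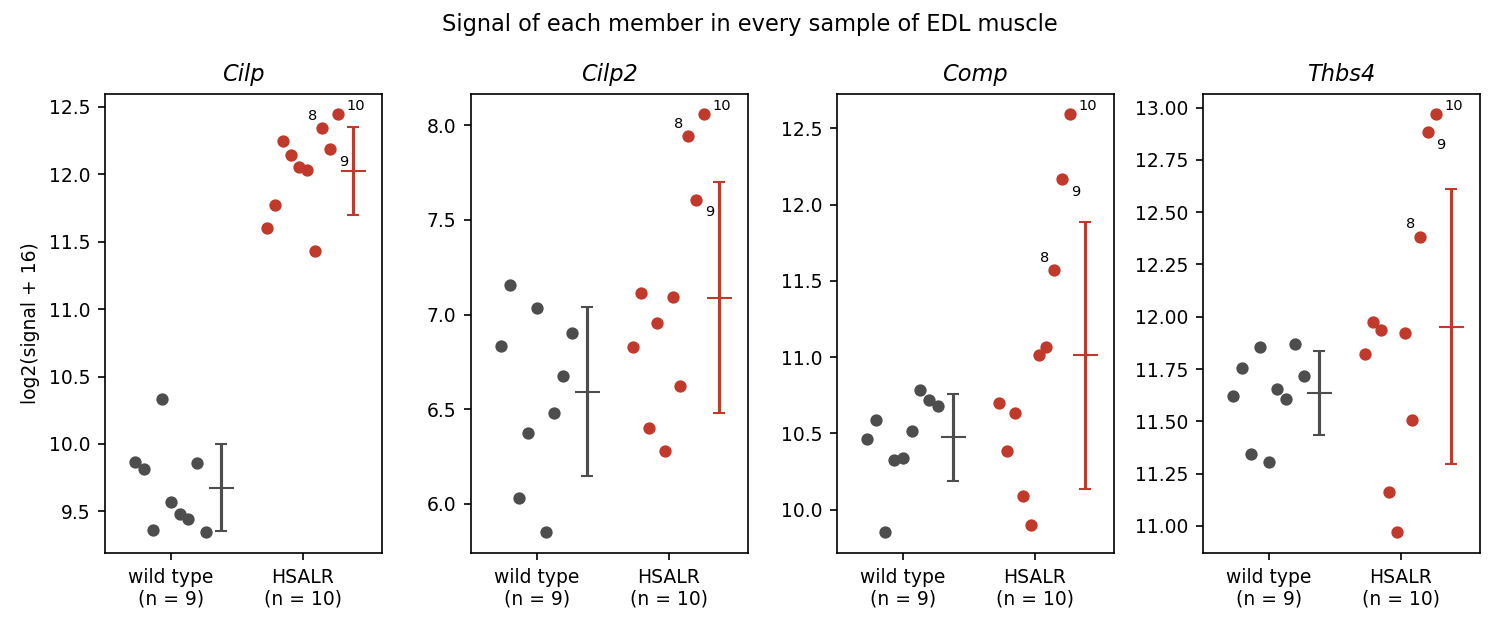
Signal of each member as log2(signal + 16) on the vertical axis, 1 point per sample, with wild type in grey (n = 9) and HSALR in red (n = 10), and the group mean with its SD beside the points. Numbers mark HSALR samples 8, 9 and 10. In Cilp the groups do not overlap, while in Cilp2, Comp and Thbs4 samples 8, 9 and 10 are the highest of all 19.

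The members thus fell into different patterns over the HSALR samples. Sample 10 lay above the mean of HSALR samples 1 to 8 by 1.92 in Comp, 1.26 in Thbs4 and 1.15 in Cilp2 on the log2 scale, and by 0.49 in Cilp. For sample 9 these differences were 1.5, 1.18, 0.70 and 0.24. The highest Cilp signal without samples 9 and 10 was 5169, in sample 8, close to the highest of all at 5556.

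**Figure D2:**
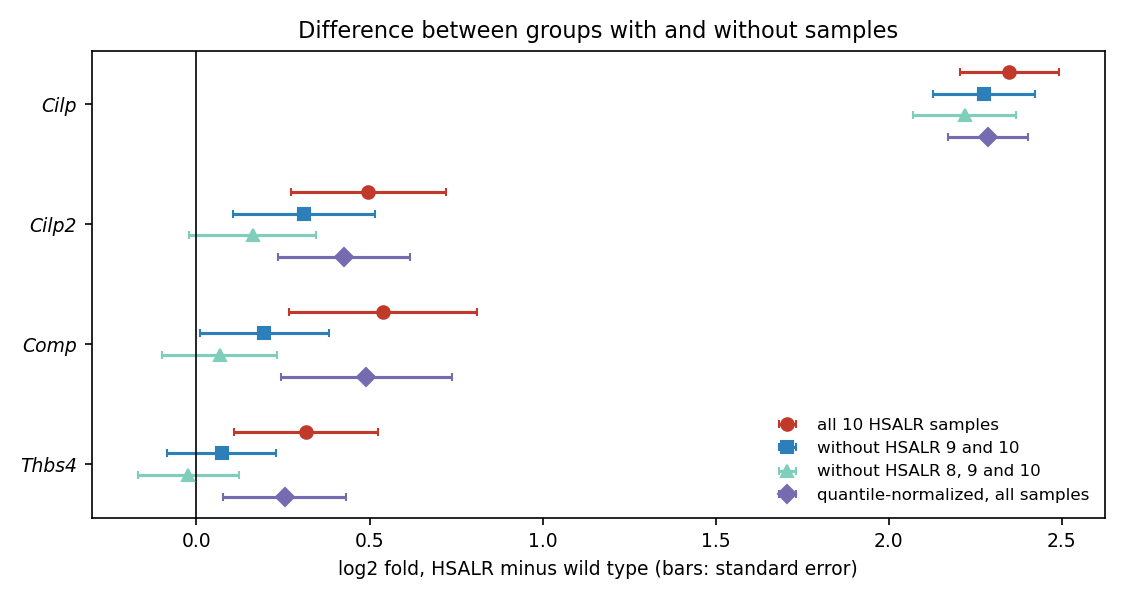
Log2 fold of HSALR minus wild type for each member, with standard errors as bars, for all 10 HSALR samples, without samples 9 and 10, without samples 8, 9 and 10, and after quantile normalization of all samples. Cilp stays between 2.22 and 2.35, and the other members lie nearer to 0 once samples are left out.

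Quantile normalization, which removes differences in overall brightness between arrays, gave log2 folds of 2.29 ± 0.12 (SE) for Cilp, 0.43 ± 0.19 for Cilp2, 0.49 ± 0.25 for Comp and 0.25 ± 0.18 for Thbs4. With it and without HSALR samples 9 and 10 the values were 2.26 ± 0.12, 0.29 ± 0.19, 0.19 ± 0.17 and 0.04 ± 0.13. RNA integrity was also used as a covariate, read from the 3'/5' signal ratio of control probes. The log2 folds were then 2.43 ± 0.165 for Cilp, 0.59 ± 0.26 for Cilp2, 0.85 ± 0.29 for Comp and 0.56 ± 0.22 for Thbs4. The log2 ratio ran from -0.149 to 0.0202 in wild type and from -0.167 to -0.035 in HSALR, so it was partly tied to the group. Why the folds changed was not tested.

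Markers of other cells that an EDL sample can hold were measured beside the members. In bulk muscle, more cells of a type and more RNA per cell cannot be told apart. Of 5 tenocyte markers, the transcription factors Scx and Mkx, the membrane protein Tnmd and the small proteoglycans Fmod and Kera, all 5 passed the filter. Their summed signal was 5780 to 8162 in wild type, 3551 to 7916 in HSALR samples 1 to 7, and 13217, 16686 and 20978 in samples 8, 9 and 10. Of 14 fibroblast and fibro-adipogenic progenitor markers 13 had a probe set, all of which passed the filter. Their summed signal was 33051 to 46663 in wild type, 27716 to 44126 in HSALR samples 1 to 7, and 56019, 78463 and 80861 in samples 8, 9 and 10. The order of these 3 samples against the rest was thus that of Comp and Thbs4.

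Macrophage markers, with 11 of 12 above the filter, summed to 4625 to 7964 in wild type, 4124 to 9843 in HSALR samples 1 to 7, and 11291, 22917 and 25925 in samples 8, 9 and 10. In limma 2 of these 11 macrophage markers rose, with all samples and without HSALR samples 9 and 10. Of the 13 fibroblast markers 1 rose with all samples and 0 without samples 9 and 10, and of the 5 tenocyte markers none passed. Of all genes tested 3.11% rose with all samples and 2.08% without samples 9 and 10. At an unadjusted p under 0.05 in limma with all samples, 10 macrophage, 3 fibroblast and 0 tenocyte markers were higher. All 11 macrophage markers had a positive log2 fold (median 0.66), as did 60.4% of all genes tested. Without samples 8, 9 and 10, no macrophage marker passed and 1 fibroblast marker fell. Fat cell markers were also high in some HSALR samples other than 8, 9 and 10. Of 6 such markers 4 had a probe set and 2 passed the filter, Adipoq, the hormone adiponectin, and Retn, the hormone resistin, both named after their values were seen. Both rose, with log2 folds of 1.58 ± 0.41 and 0.69 ± 0.16 (SE, limma adjusted p = 0.0237 and 0.0146), and of 1.54 and 0.67 without samples 9 and 10 (limma adjusted p = 0.0449 and 0.0297), and neither passed without samples 8, 9 and 10. The summed signal of the fat list was 97 to 236 in wild type, 163 to 947 in HSALR samples 1 to 7, and 723, 310 and 658 in samples 8, 9 and 10. Chondrocyte markers were dim. Only Acan and Col9a1 of 7 chondrocyte markers passed the filter, with log2 folds of 0.10 ± 0.15 and -0.04 ± 0.17 (SE, limma adjusted p = 0.756 and 0.917; Col9a1 is named after its value was seen). The defining genes Col2a1, the main cartilage collagen, and Sox9, the master transcription factor of chondrocytes, lay below it, with mean log2 signals of 5.90 and 5.43 in wild type and 5.91 and 5.93 in HSALR. In HSALR samples 9 and 10 the signal of Col2a1 was 121.5 and 139.8, above the highest wild-type value of 72.2. The summed signal of this list was 240 to 428 in wild type, 196 to 383 in HSALR samples 1 to 7, and 253, 477 and 483 in samples 8, 9 and 10. Slow fibre markers varied widely in both groups, with summed signals of 2894 to 32521 in wild type, 3033 to 15597 in HSALR samples 1 to 7, and 17670, 4283 and 5567 in samples 8, 9 and 10. Smooth muscle and pericyte markers summed to 7356 to 9557 in wild type and 7449 to 9919 in HSALR samples 1 to 7. Samples 8, 9 and 10 lay at 12335, 11265 and 12688. In limma 1 of 6 tested rose, and 0 without samples 9 and 10. Endothelial markers summed to 1783 to 3116 in wild type, and to 3061, 2473 and 2344 in samples 8, 9 and 10. Schwann cell markers summed to 1543 to 2906 in wild type, and to 2543, 4976 and 3417 in these samples. The part of these cell types in the members' values was not tested.

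Whether members moved together from sample to sample was asked within each group. The members were chosen by their measured signal in these samples, so the p-values of these correlations may not be independent of that choice. In all, 36 correlations were computed, 6 between members and 12 between a member and the mean of a marker list in each group, and p-values were adjusted over all 36. Among wild-type samples no pair of members passed. The highest correlations were of Comp with Thbs4 (Pearson r = 0.596, exact permutation p = 0.0927, adjusted p = 0.254; Spearman rho = 0.333, n = 9) and of Cilp with Thbs4 (r = 0.59, exact permutation p = 0.0987, adjusted p = 0.254; rho = 0.467, n = 9). Cilp and Comp showed an r of 0.03.

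Among the 10 HSALR samples Comp, Thbs4 and Cilp2 correlated with each other. For Comp with Thbs4 Pearson's r was 0.919 (permutation p = 0.00038, adjusted p = 0.00228) and Spearman's rho 0.77 (permutation adjusted p = 0.052). For Cilp2 with Thbs4 r was 0.825 (permutation p = 0.00416, adjusted p = 0.0165, rho = 0.83), and for Cilp2 with Comp it was 0.817 (permutation p = 0.00457, adjusted p = 0.0165, rho = 0.709). By Spearman's rho only Cilp2 with Thbs4 passed (permutation adjusted p = 0.029), and Cilp2 with Comp did not (permutation adjusted p = 0.0859). All 3 correlations rest in part on the samples that stood apart. Without HSALR samples 9 and 10 r was 0.787, 0.685 and 0.651 (n = 8, exact permutation adjusted p = 0.0922, 0.204 and 0.22). For Comp with Thbs4 the 2 samples farthest from the median of Comp were these same samples 9 and 10. Cilp did not pass with any other member among HSALR samples, with r of 0.529 with Cilp2, 0.415 with Comp and 0.468 with Thbs4 (n = 10, permutation adjusted p = 0.262, 0.4 and 0.327). After quantile normalization without samples 9 and 10 these 3 values turned negative, at -0.20, -0.46 and -0.44 (n = 8, exact permutation adjusted p = 0.751, 0.509 and 0.559).

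In wild-type muscle Cilp followed the fibroblast list closely. The 9 wild-type samples had the same order in Cilp and in the mean of the 13 fibroblast markers (Pearson r = 0.949, exact permutation p = 2.76e-06, the smallest that permutations of 9 samples can give, adjusted p = 9.92e-05; Spearman rho = 1.0). Wild-type sample 4 was highest in both, with a Cilp signal of 1275, and sample 9 lowest in both, at 634. The correlation was 0.943 after quantile normalization (exact permutation adjusted p = 0.000595) and 0.985 without wild-type samples 1 and 4, the farthest from the median of Cilp (n = 7, exact permutation adjusted p = 0.00625). Cilp also followed the tenocyte markers in wild type (r = 0.918, exact permutation p = 0.000562, adjusted p = 0.00289; rho = 0.817, n = 9), which fell short without those samples (r = 0.845, n = 7, exact permutation adjusted p = 0.0922).

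Among HSALR samples the relation of Cilp to these lists did not pass. With the fibroblast list r was 0.514 (n = 10, permutation p = 0.126, adjusted p = 0.262; rho = 0.661), and 0.245 without samples 9 and 10 (n = 8, exact permutation adjusted p = 0.751). HSALR samples 4 and 5, the lowest in the fibroblast list at -0.46 and -0.48 relative to the wild-type mean (log2), had Cilp signals of 4496 and 4229, close to the HSALR median. The difference between the groups in this correlation was not tested.

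Thbs4 had the tightest relation to the fibroblast list among HSALR samples. Pearson's r was 0.976 (n = 10, permutation p = 3e-05, adjusted p = 0.00036; rho = 0.952). It was 0.97 without samples 5 and 10, the farthest from the median of Thbs4 (n = 8, exact permutation adjusted p = 0.00625), 0.961 without samples 9 and 10 (n = 8, exact permutation adjusted p = 0.00675), and 0.951 without samples 8, 9 and 10 (n = 7, exact permutation adjusted p = 0.0476). Without samples 9 and 10 and after quantile normalization it was 0.915 (n = 8, exact permutation adjusted p = 0.0402). With the tenocyte markers r of Thbs4 was 0.969 (n = 10, permutation p = 2e-05, adjusted p = 0.00036; rho = 0.915), and 0.927 without samples 9 and 10 (n = 8, exact permutation adjusted p = 0.00871). Without samples 8, 9 and 10 it was 0.923 and missed the threshold (n = 7, exact permutation adjusted p = 0.0696). Among wild-type samples the values for Thbs4 were 0.554 with the fibroblast list and 0.701 with the tenocyte list (n = 9, exact permutation adjusted p = 0.262 and 0.106), the latter 0.785 after quantile normalization (exact permutation adjusted p = 0.0405).

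Comp correlated with both lists among the 10 HSALR samples (r = 0.954 and 0.937 with the fibroblast and tenocyte lists, permutation adjusted p = 0.0013 for each; rho = 0.842 and 0.818). Without samples 9 and 10 these were 0.864 and 0.796 (n = 8, exact permutation adjusted p = 0.0536 and 0.0922), past the threshold no more, and 0.835 and 0.739 after quantile normalization (exact permutation adjusted p = 0.0402 and 0.154). Cilp2 had r of 0.904 with the tenocyte list and 0.81 with the fibroblast list (n = 10, permutation adjusted p = 0.00337 and 0.0185), and 0.861 and 0.681 without samples 9 and 10 (n = 8, exact permutation adjusted p = 0.0682 and 0.213). Without samples 8 and 10, the farthest from its median, the values were 0.834 and 0.713 (n = 8, exact permutation adjusted p = 0.0775 and 0.166). Among wild-type samples Comp and Cilp2 passed with neither list (n = 9). For Comp r was 0.05 with the fibroblast list and 0.345 with the tenocyte list (exact permutation adjusted p = 0.931 and 0.533). For Cilp2 these were 0.216 and 0.368 (exact permutation adjusted p = 0.696 and 0.502). By Spearman's rho Cilp2 fell short with the fibroblast list among the 10 HSALR samples (rho = 0.745, permutation adjusted p = 0.0622). No member passed with the slow fibre list in either group.

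**Figure D3:**
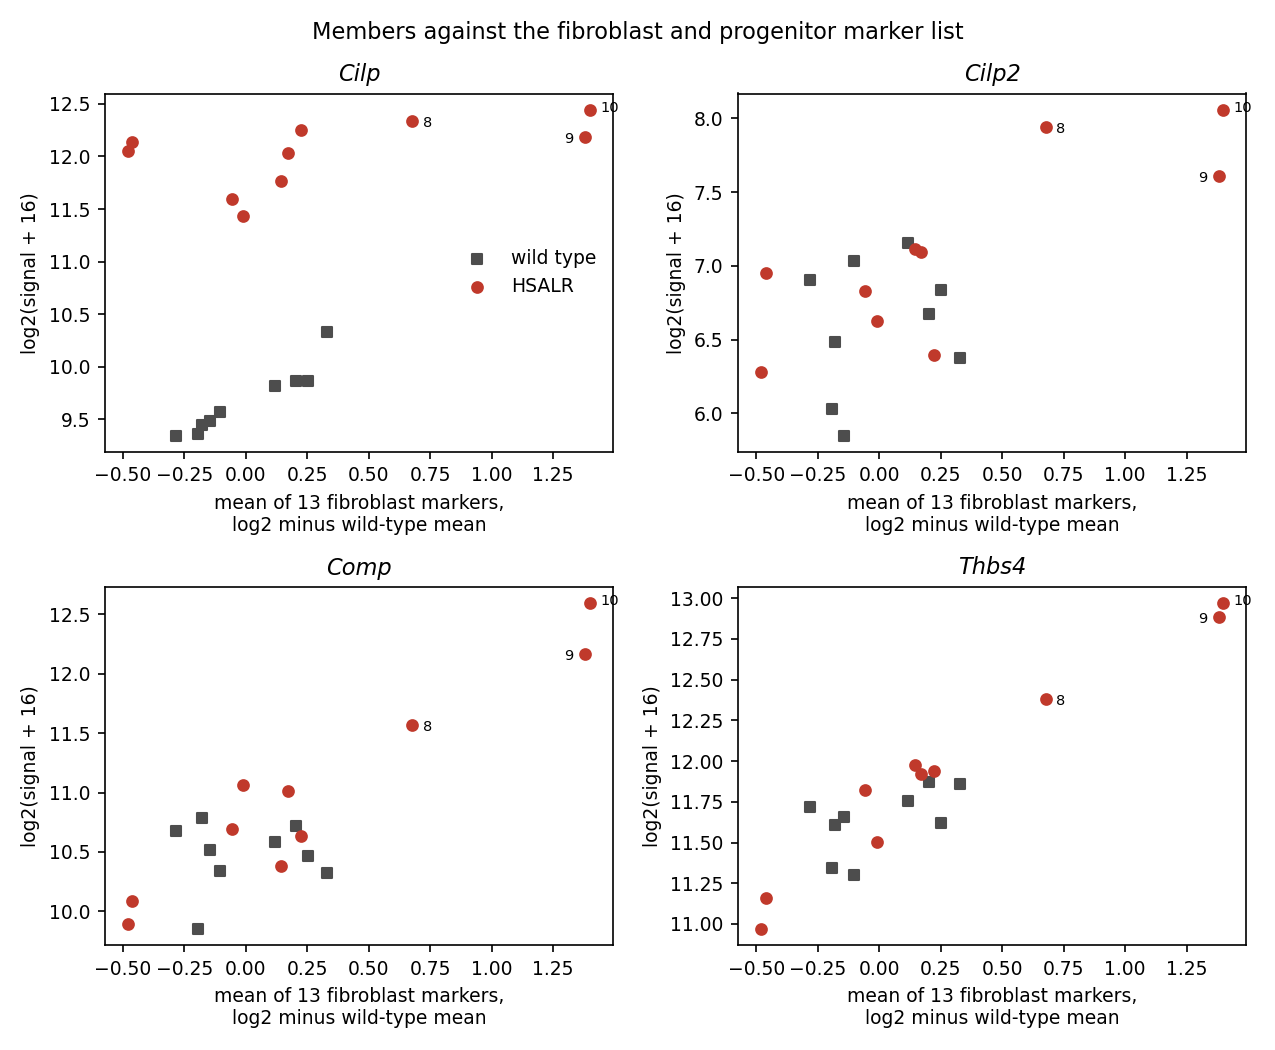
Each member's log2(signal + 16), vertical axis, against the mean of 13 fibroblast markers as a log2 difference from the wild-type mean, horizontal axis, with wild type as grey squares (n = 9) and HSALR as red circles (n = 10), and samples 8, 9 and 10 numbered. HSALR samples lie along the wild-type samples in Thbs4 and above them in Cilp. HSALR samples 4, 5, 8, 9 and 10 lie outside the wild-type range of the fibroblast list (-0.28 to 0.33). No wild-type sample can be compared with these at their level.

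The genes whose sample-to-sample pattern was most like each member were sought in deviations from the group means over 17 samples, without HSALR samples 9 and 10, among 11533 genes. For Comp these were Dcn, the proteoglycan decorin (r = 0.952), Gsn, the actin-severing protein gelsolin (0.863), and Topors, a ubiquitin ligase (0.862). Dcn and Gsn belong to the fibroblast list. For Thbs4 they were Abi3bp, a matrix protein (0.945), Man1a, a mannosidase of glycoprotein processing (0.93), and Anxa1, annexin A1 (0.93). Of these 6 genes Anxa1 rose in HSALR (log2 fold 0.87 ± 0.22, SE, limma adjusted p = 0.0232), while Dcn lay at 0.05 ± 0.11 (limma adjusted p = 0.834). Man1a did not pass at its brightest probe set (0.63 ± 0.21, limma adjusted p = 0.0912) and passed at a dimmer one (0.83 ± 0.19, limma adjusted p = 0.0121).

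As deposited, the genes most like Cilp were others: Tspan33, a tetraspanin (0.848), Ampd2, an AMP deaminase (0.824), and Tmtc4, a membrane protein (0.814). None of them passed between the groups, with log2 folds of -0.26 ± 0.10, 0.21 ± 0.20 and -0.12 ± 0.13 (SE, limma adjusted p = 0.153, 0.597 and 0.674). For Cilp2 they were Man1c1, another mannosidase (0.82), Pramel12 (0.815) and Twsg1, a modulator of bone morphogenetic proteins (0.809). For comparison, 5% of genes had an r above 0.59, 0.577, 0.611 and 0.749 with Cilp, Cilp2, Comp and Thbs4. Samples share the brightness of their array in these values, and after quantile normalization r was 0.698 for Tspan33 with Cilp, 0.886 for Dcn with Comp and 0.925 for Abi3bp with Thbs4. Dcn and Abi3bp ranked 1 there too, while Tspan33 fell to rank 11 and Tmtc4 to rank 6 for Cilp, Pramel12 to rank 10 for Cilp2, Topors to rank 10 for Comp and Man1a to rank 5 for Thbs4.

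The other genes of the same matrix and of the signals these proteins bind were read from 8 lists, 101 different genes, of which 80 were tested at their brightest probe set. In limma 3 rose and 1 fell, against 3.11% and 2.31% of all 11533 genes. Without HSALR samples 9 and 10 the counts were 3 and 2, against 2.08% and 1.87% of genes, and with quantile normalization as well 4 and 2, against 5.67% and 6.12%. Median log2 folds are given beside that of all genes tested, 0.05, which was 0.01 without HSALR samples 9 and 10.

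Of the other thrombospondins, Thbs1, an activator of TGF-beta, Thbs2 and Thbs3 did not pass. Their log2 folds were 0.50 ± 0.32, 0.53 ± 0.41 and 0.59 ± 0.27 (SE, limma adjusted p = 0.4, 0.489 and 0.221), and 0.17, -0.04 and 0.22 without HSALR samples 9 and 10. Of 27 genes of cartilage matrix and its regulators 13 were tested, 0 rose and 0 fell in limma (at an unadjusted p under 0.05, 1 above and 0 below), with a median log2 fold of 0.08, and -0.09 without HSALR samples 9 and 10. After quantile normalization 1 of them rose, Prg4, the joint lubricant lubricin (log2 fold 0.72, limma adjusted p = 0.0479), named after its value was seen. Its signal was 5267 and 4356 in HSALR samples 9 and 10. No gene of this list passed without them, with or without quantile normalization (Prg4 as deposited, limma adjusted p = 0.25). In these samples Col11a1 lay at 1331 and 1502 and Epyc at 1088 and 1278, above wild-type maxima of 216.3 and 252.1. Acan, Matn2, Matn4 and Prelp also lay above their wild-type maxima in both samples, and Col11a2 in sample 9 alone. Chad, Chadl, Col9a1, Snorc and Sox6 did not exceed theirs. Apart from Acan, these genes were named after their values were seen. Genes outside this list also lay above their wild-type maxima in HSALR samples 9 and 10, among them Igf1 at 3863 and 4667 against 1004. The share of all tested genes that did so was not counted.

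None of 14 tendon and tenocyte genes passed in limma (0 rose, 0 fell, 2 higher at an unadjusted p under 0.05). All 14 had a positive log2 fold, as did 60.4% of all genes tested, with a median of 0.35, and of 0.01 without HSALR samples 9 and 10. Scx, Mkx and Tnmd, which mark tendon cells, had log2 folds of 0.35 ± 0.19, 0.43 ± 0.25 and 0.47 ± 0.33 (SE, limma adjusted p = 0.287, 0.349 and 0.437), and 0.27, 0.10 and 0.07 without these samples. Of 9 genes of the myotendinous junction 0 rose and 0 fell (1 higher at an unadjusted p under 0.05), with a median of 0.07. Col22a1, a collagen particular to this junction, lay at a log2 fold of -0.05 ± 0.17 (limma adjusted p = 0.902). After quantile normalization Vcl, the adhesion protein vinculin, also named after its value was seen, rose in this list (log2 fold 0.31, limma adjusted p = 0.042). Without HSALR samples 9 and 10 no gene of this list passed, with or without quantile normalization (Vcl as deposited, limma adjusted p = 0.216).

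Ltbp1, which binds latent TGF-beta in the matrix, rose among 19 tested genes of TGF-beta ligands, receptors, mediators and targets (log2 fold 0.74 ± 0.19, SE, limma adjusted p = 0.0234). Its log2 fold was 0.50 without HSALR samples 9 and 10 (limma adjusted p = 0.034) and 0.44 without samples 8, 9 and 10 (0.0549). No other gene of this list passed, although at an unadjusted p under 0.05 there were 7 above and 1 below, and the median was 0.19. After quantile normalization 5 rose and 1 fell, against 6.96% and 8.51% of all genes, and without HSALR samples 9 and 10 as well 2 rose and 1 fell. Smad3, a mediator of TGF-beta signals named after its value was seen, had a log2 fold of -0.47 ± 0.15 (SE, limma adjusted p = 0.0679). It fell without samples 9 and 10 (-0.57, limma adjusted p = 0.026) and after quantile normalization (-0.52, limma adjusted p = 0.00744). Tgfb1, the ligand that CILP binds, lay at a log2 fold of 0.19 ± 0.15 (limma adjusted p = 0.498). Tgfbi, a matrix protein induced by TGF-beta, lay at 0.59 ± 0.21 (limma adjusted p = 0.114) and passed after quantile normalization (0.0485).

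Of 10 genes of the IGF1 axis Igfbp5, which binds the IGF ligands, fell (log2 fold -0.66 ± 0.16, SE, limma adjusted p = 0.0162, and -0.82 without HSALR samples 9 and 10). The log2 fold of Igf1 was 0.52 ± 0.40 (limma adjusted p = 0.491) with all samples and -0.07 without these. None of 5 tested proteases that cut COMP or aggrecan passed in limma (none at an unadjusted p under 0.05 in either direction), with a median of 0.28. Among 7 tested receptors of thrombospondins Itgav, the integrin subunit alpha V, and Cd36, a receptor also known as a fatty acid transporter, rose. The log2 fold of Itgav was 0.65 ± 0.11 (SE, limma adjusted p = 0.000767), and 0.58 without HSALR samples 9 and 10. That of Cd36 was 0.37 ± 0.11 (limma adjusted p = 0.0415), and its call was lost in 12 of 19 fits without 1 sample (wild-type samples 1, 2, 3, 4, 8 and 9 and HSALR samples 1, 2, 3, 6, 8 and 9) and under 6 of 14 other settings (limma adjusted p up to 0.0872).

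**Figure D4:**
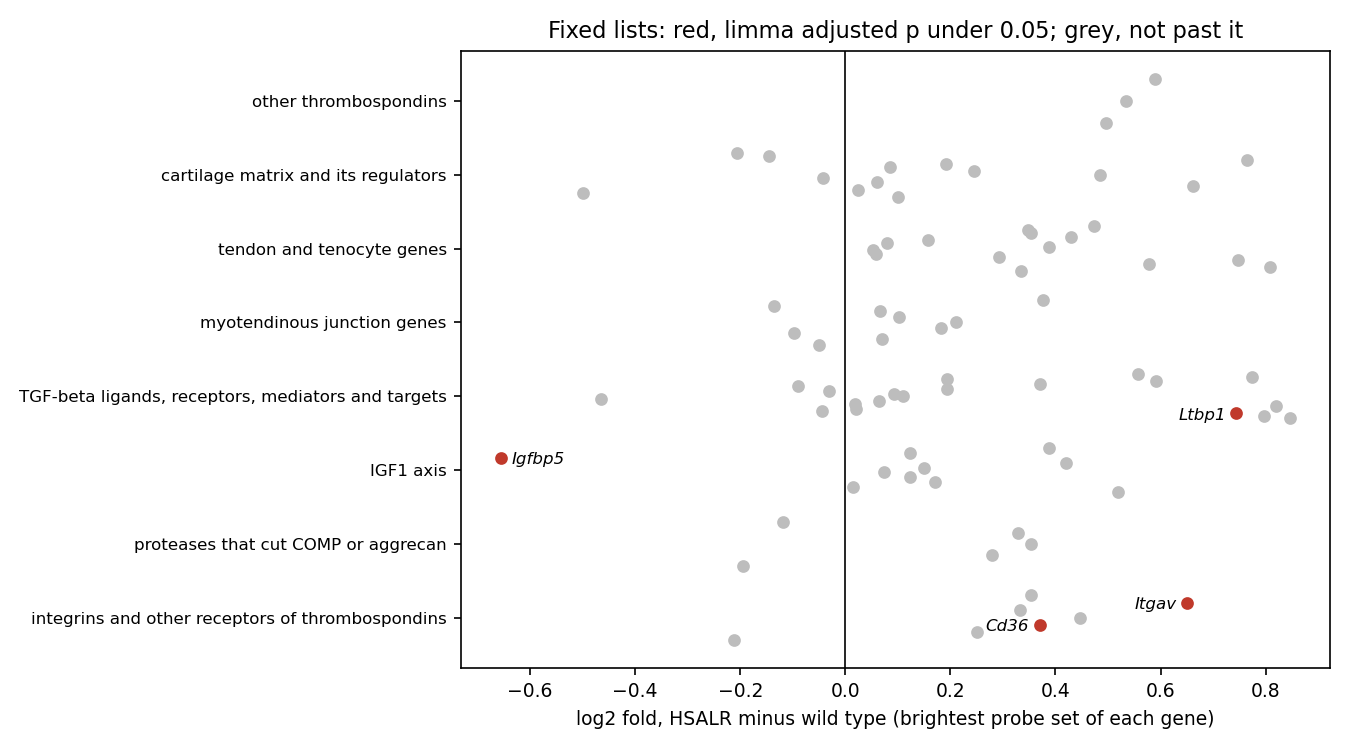
Log2 fold of HSALR minus wild type, horizontal axis, for each tested gene of the 8 fixed lists, 1 point per gene at its brightest probe set (n = 10 against 9). Ltbp1, Itgav, Cd36 and Igfbp5, in red, passed in limma, and all 14 tendon genes lie above 0.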

How the data were processed

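Biotin-labelled RNA of each sample was hybridised by the authors to a 1-colour Affymetrix array, per the labels' protocols. What the authors deposited are signal intensities, on a linear scale, for 45101 probe sets. The submitters' processing notes name GCOS 1.4. How signals were computed and scaled is not given in the sources used here. From these values log2(signal + 16) was computed, and the 64 controls were removed. A probe set was tested if its mean over the 19 samples was not below the median of such means (6.09). Gene symbols came from the platform annotation, updated through Entrez identifiers for 34741 probe sets. There were 34945 probe sets with 1 symbol, 932 with several, which named no gene, and 9160 unnamed here, and a gene of a list was read at its brightest probe set.

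The groups were compared in limma 3.58.1 under R 4.3.3 (lmFit, then eBayes, 2-sided, Benjamini-Hochberg adjustment over all tested probe sets, false discovery rate 0.05). Correlations used exact permutation tests, 2-sided, or 100000 resamples for 10 samples. Members and lists were chosen with earlier results of these data known. Named genes were the members, 13 genes whatever their result, up to 4 per list past the threshold, and the 3 most like each member. Alternatives were other pseudocounts, filters, scalings and variance models, a replicate block, array weights, a 3'/5' covariate and leaving out samples. Leaving out HSALR samples 8, 9 and 10 was chosen after the data were seen. The number of arrays limits the precision. Scripts were tested on simulated data. Figures were drawn with matplotlib 3.10.9.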

Additional observations from a re-analysis of the deposited data

Results flagged for a closer look

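Of 8 sets of values tested, the 4 members in each group, 1 had a sample far from the others. Comp in wild-type sample 3 had a log2 signal of 9.85, below the other 8 wild-type samples, with a gap to the nearest of them that was 0.506 of the whole range. Chance flags about 1 in 20 such sets.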

How the results depend on the processing

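The log2 fold of Cilp lay between 2.22 and 2.43 over 12 settings and between 2.30 and 2.43 over fits without 1 sample. The ranges over the same settings were 0.16 to 0.59 for Cilp2, 0.07 to 0.85 for Comp and -0.02 to 0.56 for Thbs4, and over fits without 1 sample 0.39 to 0.59, 0.36 to 0.66 and 0.20 to 0.43. The numbers in the sample titles showed no clear pairing of the samples. Deviations of same-numbered samples had correlations of -0.24 to 0.13, 3 of 9 above 0.1. By this measure 1 wild-type and 3 HSALR samples were most like the sample of their own number. With a replicate block, fitted without HSALR sample 10, 403 probe sets were higher and 307 lower, with 2 list genes lower. As deposited 645 were higher and 495 lower. Those higher and lower were 1051 and 1294 with median-centred arrays, 1457 and 1884 after quantile normalization, and 1153 and 1315 after quantile normalization without HSALR samples 9 and 10. Those higher were 2278 with array weights, 1705 with the 3'/5' covariate, 427 without HSALR samples 9 and 10 and 331 without samples 8, 9 and 10. Without 1 sample the range was 473 to 1561 higher, the most without HSALR sample 5, and 383 to 671 lower. List genes that rose, 3 as deposited, numbered 9 after quantile normalization, 5 with arrays centred, 11 with array weights, 15 with the 3'/5' covariate, 1 without HSALR samples 8, 9 and 10, and 2 to 10 without 1 sample. Those that fell, 1 as deposited, numbered 3 after quantile normalization, 1 to 2 without 1 sample, and 2 with arrays centred, with array weights, with another variance model, in only the brightest probe sets, with HSALR samples 9 and 10 averaged, without them, without them after quantile normalization, and without samples 8, 9 and 10. Of all genes tested 3.11% rose and 2.31% fell as deposited, and 6.96% and 8.51% after quantile normalization. With arrays centred, array weights or the 3'/5' covariate the share of all genes was not computed, and nothing is read from these counts of list genes. The causes of these changes were not tested.

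The correlations among HSALR samples of Cilp2 with Comp and with Thbs4 missed the threshold after quantile normalization (r = 0.74 and 0.669). So did those of Cilp2 with Comp, Cilp2 with Thbs4 and Comp with Thbs4 without the 2 samples farthest from the median of the first measure (0.679, 0.741 and 0.787), without HSALR samples 9 and 10 (0.651, 0.685 and 0.787), and without samples 8, 9 and 10 (0.258, 0.446 and 0.657). The sign of list genes that had not passed turned for Thbs2, Acan and Igf1 without HSALR samples 9 and 10 (-0.0433, -0.0796 and -0.0689), the same after quantile normalization (-0.0341, -0.0852 and -0.0661), and without samples 8, 9 and 10 (-0.211, -0.0537 and -0.111), where Tnmd and Mkx turned too (-0.13 and -0.0222). Col22a1 turned with the 3'/5' covariate (0.106), and without wild-type sample 4 or HSALR sample 1 (0.0447 and 0.0218), and ranged from -0.125 to 0.0447 without 1 sample.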
